A study of Mus musculus with 4 samples.

Results

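Genes of mitosis, the spindle and the kinetochore were compared between 4T1Br cells with a control hairpin and 4T1Br cells with a hairpin against YTHDF3. The group was a fixed list of 58 genes, chosen by symbol. Of these, 56 had a probe set whose annotation named that gene alone, and all 56 lay above background. They were 56 of the 13056 genes tested. Cyclin B1 (Ccnb1) and the condensin subunit Ncapg were not analysed here.

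4T1Br cells come from 4T1, a mouse mammary carcinoma line, whose name stands in the sample titles. Both groups were transduced with lentivirus and selected with puromycin, shControl with the control hairpin (2 arrays) and shYTHDF3 with the YTHDF3 hairpin (2 arrays). The sources used here do not give the hairpin sequence, the time after transduction or whether the cells were a pool or a clone. They do not name separate cultures for the arrays either, so the spread behind each p-value is that of these samples and could be technical. RNA abundance was read on Affymetrix arrays as log2 values, on which a difference of 1 is a doubling. Cell counts, cell cycle phase and protein were not analysed here, and in bulk RNA more cells in mitosis and more RNA per mitotic cell cannot be told apart.

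Cells build the machinery of division anew in each cycle. Cyclin A and cyclin B switch on CDK1, kinases of the Polo and Aurora families assemble the spindle, kinetochores join the chromosomes to microtubules, and the spindle checkpoint holds back the anaphase-promoting complex until every kinetochore is attached. The genes are transcribed together late in the cycle, and many of their promoters are known for a cell cycle element called the CHR and for CCAAT boxes bound by NF-Y. YTHDF3 is a cytoplasmic protein that reads N6-methyladenosine in messenger RNA.

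Ythdf3 itself, the check of the labels, read 8.98 and 8.81 in shControl, against 8.21 and 8.16 in shYTHDF3. It fell by 0.71 to 61.1% of the control level (SE 0.10, limma adjusted p = 0.0355). Median expression over all probe sets ran from 4.42 to 4.47 on the 4 arrays. The epithelial keratin genes Krt8 and Krt18 were well above background and higher on both shYTHDF3 arrays. Krt18 read 10.45 and 10.57 in shControl, against 11.13 and 11.02 in shYTHDF3 (0.57, limma adjusted p = 0.0527), and Krt8 differed by 0.31 (limma adjusted p = 0.151). Epcam, at 3.80 to 4.05, was under the background level of 4.28, and Cdh1, at 4.37 to 4.61, was close to it. The 4 epithelial markers summed to 2487 and 2716 on the linear scale in shControl and to 3455 and 3685 in shYTHDF3. None of 6 leukocyte markers measured was above background, and of 4 endothelial markers only Cdh5 was, at 4.26 to 4.42. Of 4 fibroblast and pericyte markers 3 were above background and they went both ways. Pdgfra fell from 9.57 and 9.39 to 8.85 and 8.88 (-0.61, limma adjusted p = 0.0471), a call lost with any array left out (0.163 to 0.216), without the filter on dim probe sets (0.113) and with the replicate block (0.0976). Pdgfrb differed by 0.21 with no overlap, Col1a1 differed by 0.10, and Rgs5 was below background. The linear sum of the 4, nearly all of it Pdgfra, was 759 and 840 in shControl and 555 and 562 in shYTHDF3. The part of these markers in the mitotic genes' differences was not tested.

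Most mitotic genes differed little between the groups, as did most genes tested. By role, the 9 centromere and kinetochore genes of the list had the highest median, 0.39, whereas 26 further kinetochore genes outside it had a median of 0.10; neither contrast was tested. Cenpn, which encodes a subunit of the inner kinetochore that binds the centromeric nucleosome, rose 1.5-fold and alone passed the test. The other 55 did not pass, and none fell. This 1 of 56 (1.79%) stands against 1.28% of all genes tested that were called higher and 1.45% called lower (2.73% in all), so the share of mitotic genes called is near that of all genes. Of the 56, 43 had a 95% confidence interval (unadjusted) that lay within log2 -0.5 and 0.5, a 1.41-fold change either way. The share of all genes tested with such an interval was not counted. An absolute difference over 0.5 was seen in 2 of the 56 and in 805 of the 13056 genes tested. Small differences were thus common among all genes and not a mark of the mitotic ones.

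The small differences were mostly of the same sign. The difference was above 0 for 47 of 56 genes (83.9%, against 51.1% of all genes tested), and the median was 0.13, or 1.09-fold, against 0.01 over all genes tested. In 37 genes (66.1%) both shYTHDF3 values lay above both shControl values, against 28.3% of all genes tested. In 5 genes (8.93%) both lay below, against 25.7%. At an unadjusted p under 0.05 by limma, 15 were higher (26.8%, against 12.2%) and 0 lower (against 10.4%). The lowest difference was -0.16 and the highest 0.62. These genes are transcribed together, so they are not independent of each other, and a list median is given here without a test.

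**Figure D1:**
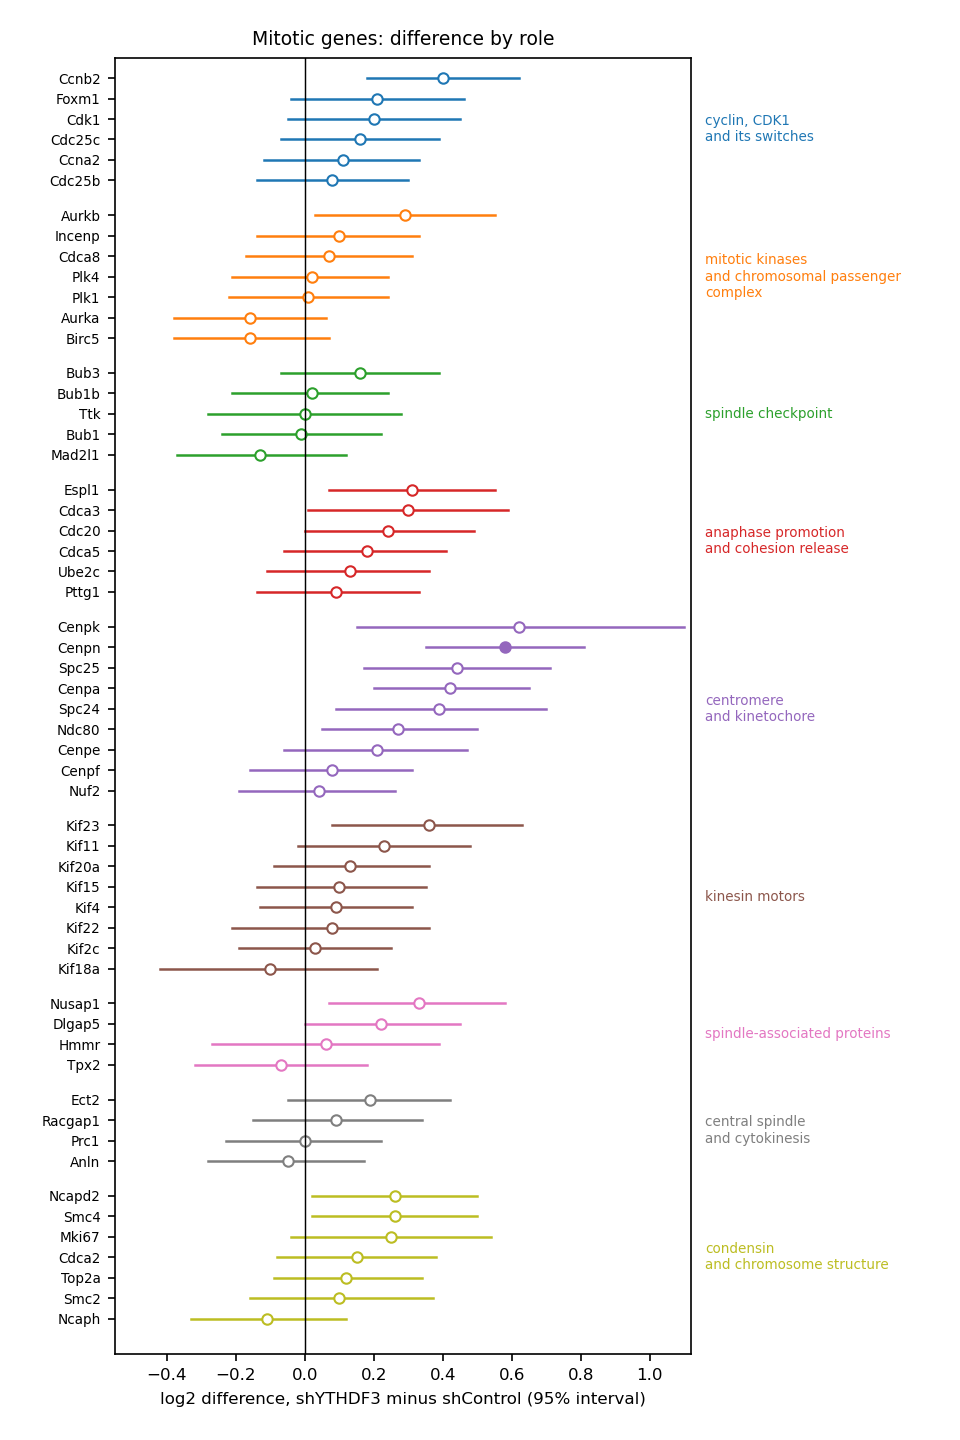
Log2 difference of each of the 56 mitotic genes (shYTHDF3 minus shControl, horizontal axis), grouped by role, with limma's unadjusted 95% interval as a line. The filled point is Cenpn, the gene that passed the limma test; open points did not pass, and the centromere and kinetochore genes hold the largest differences.

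Promoters are shown for Cenpn, the gene that rose, and for 5 members whose CHR letters lie close before the transcription start, as examples of the element in this co-transcribed set. Kif15, where the letters lie as near as in Kif11, is not shown. The CHR was searched as TTTGAA and TTCGAA and the NF-Y element as CCAAT, on both strands, in RefSeq windows of 300 bases (250 before and 50 after the start, GRCm38.p6). TTTGAA reads TTCAAA and CCAAT reads ATTGG on the other strand. Of the 56 genes measured, 45 matched the table, with 50 promoters. CHR letters were in 38 of the 50 promoters (76%), against 19.2% of all 32851 promoters in the table, and CCAAT in 37 (74%), against 37.4%. Both were in 33 (66%), against 7.52%. The printed runs are the 120 bases that end just before the start, 5′ to 3′, with CHR and CCAAT letters of either strand in capitals.
Cenpn: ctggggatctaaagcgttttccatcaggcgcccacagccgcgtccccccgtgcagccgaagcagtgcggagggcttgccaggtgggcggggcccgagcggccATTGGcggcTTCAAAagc
Cdca5: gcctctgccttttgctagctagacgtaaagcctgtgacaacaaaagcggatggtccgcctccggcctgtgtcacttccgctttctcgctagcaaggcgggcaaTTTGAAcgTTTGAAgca
Cdk1: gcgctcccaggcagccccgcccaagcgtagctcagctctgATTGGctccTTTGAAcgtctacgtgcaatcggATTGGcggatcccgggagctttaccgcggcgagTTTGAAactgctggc
Kif22: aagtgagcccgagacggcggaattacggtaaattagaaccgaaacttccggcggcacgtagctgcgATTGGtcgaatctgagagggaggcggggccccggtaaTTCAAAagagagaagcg
Cdc20: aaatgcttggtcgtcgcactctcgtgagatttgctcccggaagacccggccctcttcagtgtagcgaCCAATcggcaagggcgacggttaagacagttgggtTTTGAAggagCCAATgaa
Kif11: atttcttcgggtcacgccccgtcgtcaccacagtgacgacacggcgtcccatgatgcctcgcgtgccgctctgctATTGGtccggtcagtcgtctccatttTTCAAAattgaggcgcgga

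The Cenpn run lies at chr8:116921620-116921739 (plus strand), Cdca5 at chr19:6084977-6085096 (plus), Cdk1 at chr10:69352913-69353032 (minus), Kif22 at chr7:127042421-127042540 (minus), Cdc20 at chr4:118437344-118437463 (minus) and Kif11 at chr19:37376262-37376381 (plus). The CHR letters end 4 bases before the start in Cenpn and in Cdca5, 10 in Cdk1, 12 in Kif22, 13 in Cdc20 and 14 in Kif11. Cenpn carries 1 CHR and 1 CCAAT in the stretch shown, Cdk1 2 of each, and Cdca5 2 CHR without a CCAAT. CHR letters lay before the start in 19 of the 45 genes. Among the 45 genes, the 35 with CHR letters had a median difference of 0.12 and ran from -0.16 to 0.58. The 10 without had a median of 0.03 and ran from -0.16 to 0.62, the highest being Cenpk. That contrast was not tested. Cenpn and Cdk1 share the element and differed by 0.58 and 0.20, while Kif22, which also carries a CCAAT and a CHR, differed by 0.08. A match of letters is a description of the window, not a measured binding site.

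Centromere and kinetochore genes had the highest median of the roles, 0.39 over 9 genes (1.31-fold), with 1 rise and 8 not passing. In 8 of the 9 the groups did not overlap, with shYTHDF3 the higher, as was so in 28.3% of all genes tested. Cenpn read 8.75 and 8.67 in shControl, against 9.30 and 9.29 in shYTHDF3, a rise of 0.58 (SE 0.09, 95% interval 0.35 to 0.81, limma adjusted p = 0.0416). The gap between the groups was several times the gap between arrays of a group. Cenpn's limma adjusted p was 0.158 without shControl 1, 0.187 without shControl 2, 0.177 without shYTHDF3 1, 0.209 without shYTHDF3 2, 0.104 without the filter on dim probe sets and 0.0942 with the replicate number as a block, its difference staying between 0.54 and 0.62.

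Cenpk, another inner kinetochore subunit, read 6.38 and 5.84 in shControl, against 6.83 and 6.64 in shYTHDF3. Its difference of 0.62 was the largest of the 56 but its shControl arrays stood far apart, and it did not pass (95% interval 0.15 to 1.10, limma adjusted p = 0.142). Leaving out shControl 1 gave 0.90 and leaving out shControl 2 gave 0.35. Cenpa, the histone H3 variant that marks the centromere, read 9.64 and 9.58 in shControl, against 10.01 and 10.07 in shYTHDF3, a difference of 0.42 (limma adjusted p = 0.0737).

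The NDC80 complex is the outer kinetochore's microtubule coupler and has 4 subunits, all measured here. Spc25 read 7.95 and 7.73 in shControl, against 8.29 and 8.27 in shYTHDF3 (0.44, limma adjusted p = 0.0983). Spc24, its partner at the chromosome-facing end, read 8.66 and 8.84 against 9.26 and 9.03 (0.39, limma adjusted p = 0.144). The subunits at the microtubule end had smaller differences, a contrast that was not tested. Ndc80 differed by 0.27 (95% interval 0.05 to 0.50) and Nuf2 by 0.04 (-0.19 to 0.26), and the Nuf2 groups overlapped. Cenpe, a kinetochore-bound kinesin, differed by 0.21 and Cenpf, a large kinetochore protein, by 0.08.

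**Figure D2:**
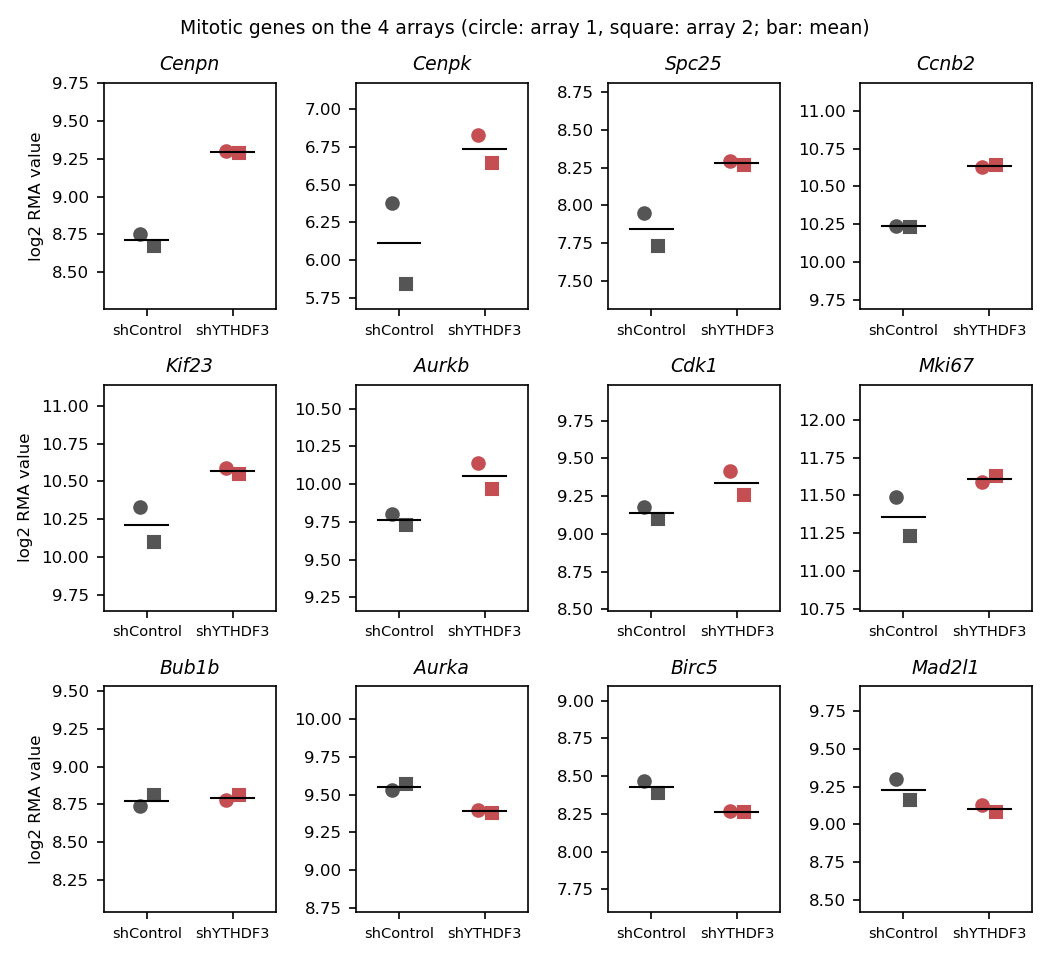
Log2 RMA value (vertical axis, the same span in every panel) of 12 mitotic genes on the 2 shControl and 2 shYTHDF3 arrays, circles being array 1, squares array 2 and bars group means. Cenpn and Ccnb2 separate with small gaps within groups, Cenpk, Mki67, Kif23 and Spc25 have wider gaps between their shControl arrays, Bub1b overlaps, and Aurka, Birc5 and Mad2l1 are lower in shYTHDF3.

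CDK1, its cyclins and their switches had a median of 0.18 over 6 genes, and none passed. In all 6 both shYTHDF3 values were above both shControl values, as was so in 28.3% of all genes tested. Ccnb2, cyclin B2, read 10.24 and 10.23 in shControl, against 10.63 and 10.64 in shYTHDF3. That difference of 0.40 (95% interval 0.18 to 0.62) missed the threshold at a limma adjusted p of 0.0769. Cdk1 read 9.18 and 9.10 against 9.42 and 9.26, a difference of 0.20 (-0.05 to 0.45). Foxm1, a transcription factor that drives these genes, read 7.97 and 8.06 in shControl, against 8.15 and 8.31 in shYTHDF3, a difference of 0.21 (-0.04 to 0.46). The CDK1-activating phosphatase genes Cdc25c and Cdc25b differed by 0.16 and 0.08 and cyclin A2 (Ccna2) by 0.11.

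Genes of anaphase promotion and cohesion release had a median of 0.21 over 6 genes, none of which passed. The groups did not overlap in any of them, with shYTHDF3 the higher, as was so in 28.3% of all genes tested. Espl1 encodes separase, the protease that cuts cohesin, and read 7.31 and 7.44 in shControl, against 7.67 and 7.72 in shYTHDF3 (0.31, limma adjusted p = 0.144). Cdca3, which serves in the destruction of mitotic entry inhibitors, read 7.28 and 7.15 against 7.63 and 7.41 (0.30, limma adjusted p = 0.205). Cdc20, the activator of the anaphase-promoting complex in mitosis, read 9.27 and 9.25 against 9.58 and 9.43 (0.24, limma adjusted p = 0.223). In each of these the arrays of the shYTHDF3 group were the higher ones. Cdca5 (sororin, a protector of cohesion) differed by 0.18, Ube2c (the ubiquitin-conjugating enzyme of the complex) by 0.13 and Pttg1 (securin, the inhibitor of separase) by 0.09.

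Mitotic kinases and the chromosomal passenger complex went both ways, with a median of 0.02 over 7 genes and none past the test. Aurkb, the kinase of the passenger complex, read 9.80 and 9.73 in shControl, against 10.14 and 9.97 in shYTHDF3 (0.29, 95% interval 0.03 to 0.55, limma adjusted p = 0.185). Birc5 (survivin), a partner of Aurkb in that complex, lay on the other side. It read 8.47 and 8.39 in shControl, against 8.27 and 8.26 in shYTHDF3, a difference of -0.16 (-0.38 to 0.07, limma adjusted p = 0.359). The remaining passenger subunits, Incenp and Cdca8 (borealin), differed by 0.10 and 0.07.

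Aurka, the centrosomal Aurora kinase, read 9.53 and 9.57 in shControl, against 9.40 and 9.38 in shYTHDF3, a difference of -0.16 (-0.38 to 0.06, limma adjusted p = 0.350) with no overlap. Plk1, the main Polo-like kinase of mitosis, differed by 0.01 (-0.22 to 0.24) and Plk4, the kinase of centriole duplication, by 0.02 (-0.21 to 0.24), and the groups overlapped in both. Tpx2, the spindle protein that activates Aurka, read 10.48 and 10.31 against 10.32 and 10.33, a difference of -0.07 (-0.32 to 0.18). A change of the size of Cenpn's thus lies outside the intervals of Plk1, Plk4, Aurka, Birc5 and Tpx2.

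Spindle checkpoint genes had a median of 0.0 over 5 genes, the lowest of the roles, and none passed. Bub3, a kinetochore-binding checkpoint subunit, read 10.93 and 10.93 in shControl, against 11.13 and 11.04 in shYTHDF3 (0.16, 95% interval -0.07 to 0.39). Mad2l1, which encodes the MAD2 inhibitor of CDC20, read 9.30 and 9.16 against 9.13 and 9.08 (-0.13, -0.37 to 0.12). Bub1b, the checkpoint protein BUBR1, read 8.74 and 8.81 against 8.78 and 8.81, a difference of 0.02 (-0.21 to 0.24). The checkpoint kinase genes Bub1 and Ttk also overlapped between the groups, with intervals of -0.24 to 0.22 and -0.28 to 0.28. Checkpoint and kinetochore genes are thus side by side at medians of 0.0 and 0.39; that contrast was not tested.

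Among the 8 kinesin motors the median was 0.10 and none passed. Kif23, the motor of the central spindle, read 10.33 and 10.10 in shControl, against 10.59 and 10.55 in shYTHDF3 (0.36, 95% interval 0.08 to 0.63, limma adjusted p = 0.144). Kif11, the motor that pushes spindle poles apart, read 10.09 and 9.91 against 10.22 and 10.24 (0.23, -0.02 to 0.48). Kif20a, a motor of late mitosis, read 9.92 and 9.90 against 10.01 and 10.08 (0.13). The groups did not overlap in these 3 or in Kif4 (0.09) and the microtubule depolymerase Kif2c (0.03), with shYTHDF3 the higher. The same was so in 28.3% of all genes tested. The groups overlapped in Kif15 (0.10), Kif22 (0.08) and Kif18a, which limits chromosome oscillation (-0.10, -0.42 to 0.21).

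Of the 4 spindle-associated proteins, Nusap1, a microtubule bundler, read 9.0 and 9.05 in shControl, against 9.26 and 9.44 in shYTHDF3 (0.33, limma adjusted p = 0.149). Dlgap5, which stabilises microtubules near chromosomes, read 9.85 and 9.87 against 10.06 and 10.11 (0.22, limma adjusted p = 0.218). The groups were apart in both, whereas they overlapped in Tpx2 and in Hmmr, a spindle pole protein whose difference was 0.06 (95% interval -0.27 to 0.39). In the central spindle and cytokinesis group the median was 0.04 over 4 genes. Ect2, which activates RhoA at the division plane, read 11.59 and 11.49 against 11.74 and 11.71 (0.19, -0.05 to 0.42). Racgap1, which forms centralspindlin with Kif23 and binds Ect2, read 9.93 and 10.04 against 10.13 and 10.02 (0.09), and Anln, a scaffold of the contractile ring, read 11.17 and 11.17 against 11.14 and 11.09 (-0.05). The groups overlapped in Racgap1 and in Prc1, the bundler of the central spindle, whose interval was -0.23 to 0.22; they were apart in Ect2 and Anln.

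Condensin and chromosome structure genes had a median of 0.15 over 7 genes, and none passed. The condensin I subunit gene Ncapd2 read 8.27 and 8.18 in shControl, against 8.54 and 8.43 in shYTHDF3 (0.26, limma adjusted p = 0.196). Smc4, an ATPase subunit of condensin, read 10.24 and 10.11 against 10.44 and 10.43 (0.26, limma adjusted p = 0.193). The groups were apart in both. Smc2, which pairs with Smc4, differed by 0.10 with overlap, and Ncaph, the subunit that closes the condensin ring, by -0.11. Mki67, the proliferation marker Ki-67 that coats mitotic chromosomes, read 11.49 and 11.23 against 11.59 and 11.63 (0.25, 95% interval -0.04 to 0.54). Top2a, the topoisomerase that untangles sister chromatids, differed by 0.12 (-0.09 to 0.34), and Cdca2, a phosphatase adaptor on chromosomes, by 0.15.

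The second control array was the lowest of the 4 for many of these genes. Each gene's value minus its own mean over the 4 arrays had a median of -0.039 on shControl 1, -0.095 on shControl 2, 0.080 on shYTHDF3 1 and 0.048 on shYTHDF3 2, whereas over all genes tested these medians lay between -0.009 and 0.012. The lowest value was on shControl 2 in 38 of the 56 genes, on shControl 1 in 11, on shYTHDF3 2 in 7 and on shYTHDF3 1 in 0. Within the control group 44 of 56 genes (78.6%) were higher on shControl 1 than on shControl 2, against 54.3% of all genes tested, and the median gap was 0.064. The median difference of 0.13 between the groups was 0.11 without shControl 2 and 0.16 without shControl 1. Single genes moved both ways without shControl 2. The differences of Cenpk, Mki67 and Kif23 went from 0.62, 0.25 and 0.36 to 0.35, 0.12 and 0.24. Those of Espl1, Foxm1 and Racgap1 went from 0.31, 0.21 and 0.09 to 0.38, 0.25 and 0.15.

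**Figure D3:**
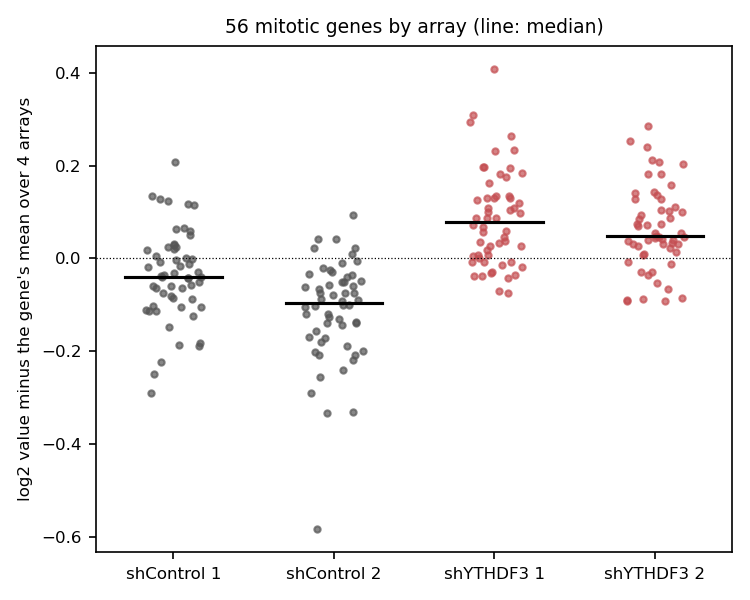
Each point is 1 of 56 mitotic genes, plotted as its log2 value on an array minus its own mean over the 4 arrays (vertical axis); black lines are the array medians of -0.039, -0.095, 0.080 and 0.048. Most genes lie below 0 on the shControl arrays and above 0 on the shYTHDF3 arrays, and shControl 2 is the lowest.

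A variance model that follows intensity gave more calls. With an intensity trend in limma, 10 of the 56 (17.9%) were called higher and 0 lower, against 5.59% of all genes tested called higher and 5.33% lower under the same model. The 10 were Cenpn, Ccnb2, Cenpa, Spc25, Ndc80, Kif23, Spc24, Nusap1, Smc4 and Aurkb, with limma adjusted p between 0.00172 and 0.0426. Of these, 5 were centromere and kinetochore genes. The differences themselves are the same numbers in both models.

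The rest of the mitotic pathway was read from fixed lists of 117 further genes, of which 110 were tested. Among them 2 rose, 0 fell and 108 did not pass (limma), with a median of 0.10. The share called higher was near that of all genes tested, of which 1.28% were called higher and 1.45% lower. Cenpm, an inner kinetochore subunit like Cenpn and Cenpk, read 7.61 and 7.60 in shControl, against 8.18 and 8.15 in shYTHDF3, a rise of 0.57 (SE 0.09, limma adjusted p = 0.0408). Psrc1, which encodes a microtubule-binding spindle protein, read 5.34 and 5.47 against 6.07 and 6.39, a rise of 0.82 (SE 0.14, limma adjusted p = 0.0440). Both were apart in every array pair, and neither call held with an array left out (limma adjusted p from 0.162 to 0.205 for Cenpm and from 0.116 to 0.193 for Psrc1), without the filter on dim probe sets (0.104 and 0.101) or with the replicate number as a block (0.0946 and 0.0748).

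By role, the 26 further kinetochore genes tested had a median of 0.10, with 1 rise and 25 not passing, and they spread from -0.38 to 0.57. The 24 further spindle, centriole and cytokinesis genes had a median of 0.14, with 1 rise, and ran from -0.43 to 0.82. The 16 genes of the anaphase-promoting complex had a median of 0.17 and none passed; the subunit gene Anapc13 differed by 0.36 and Fzr1, its activator after mitosis, by 0.32. None of 12 genes of CDK1 control passed (median 0.01); the kinase genes Melk and Pbk differed by 0.37 and 0.32. None of 13 cohesin and condensin II genes passed (median 0.09), the cohesin subunit gene Stag1 differing by 0.28 and the condensin II subunit gene Ncaph2 by 0.20.

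The 19 genes that control transcription of mitotic genes had a median of 0.12 and none passed. Rb1 and Rbl2, pocket proteins that repress cell cycle genes, differed by 0.38 and 0.30; a second Rb1 probe set, at a mean of 2.82, was below background and differed by 0.13. Of 8 CDK inhibitor genes none passed (median 0.15), and Cdkn2d (p19) and Cdkn1a (p21) differed by 0.54 (limma adjusted p = 0.0657) and 0.38 (limma adjusted p = 0.102). DNA replication genes, which act before mitosis in the cycle, had a median of 0.11 over 33 genes tested. Limma called 0 of these. At an unadjusted p under 0.05 it had 9 higher and 1 lower, where 12.2% of all genes tested were higher and 10.4% lower. The helicase subunit gene Mcm5 and the polymerase subunit gene Pold1 each differed by 0.47, with limma adjusted p of 0.0744 and 0.0567. With the intensity trend, the replication genes called were Mcm4, Mcm5, Cdt1, Gins2, Gins4, Pold1, Pole and Pole2, each of them higher. Their limma adjusted p ran from 0.00663 to 0.0493, so the calls gained under that model were not confined to mitotic genes. Of the 20 genes called with the trend on all further lists, only Ckap5, a further spindle gene, was lower. It differed by -0.41, with a limma adjusted p of 0.00831 with the trend and 0.0849 without.

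**Figure D4:**
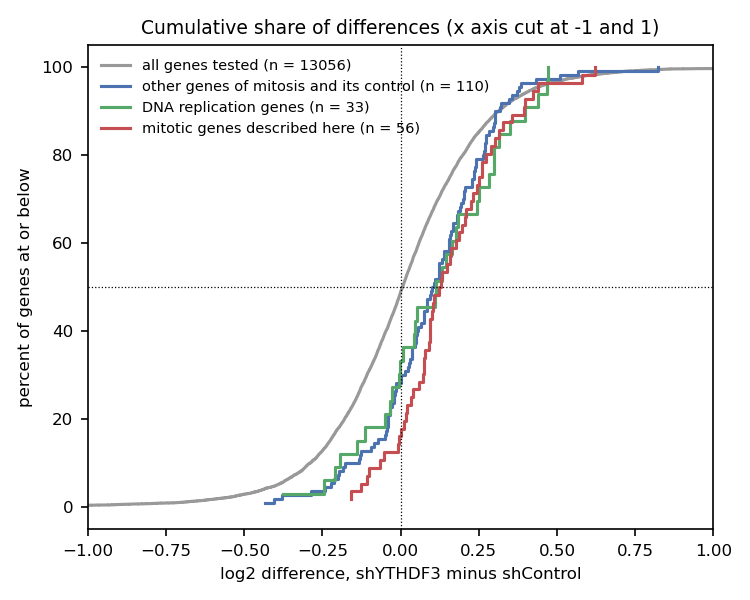
Cumulative percent of genes (vertical axis) at or below each log2 difference (shYTHDF3 minus shControl, horizontal axis, drawn from -1 to 1) for the 56 mitotic genes, 110 other genes of mitosis and its control, 33 DNA replication genes and all 13056 genes tested. The 3 gene lists cross 50% at 0.13, 0.10 and 0.11, to the right of all genes at 0.01; no test was made of these shifts.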

How the data were processed

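The authors deposited 1 log2 value per probe set and array, and the submitters' processing notes name RMA; the log base was inferred from the range of the values, and no software version was stated. RMA makes the arrays' distributions alike, so a shift shared by most genes would not be seen. Of 41345 probe sets, 23521 carried 1 gene symbol in the platform annotation, 1814 several and 16010 none; 23328 took a current symbol by Entrez identifier. A gene was read from its probe set with the highest mean. Genes above log2 4.28, the 95th percentile of 1108 olfactory receptor probe sets, were tested (13056 of 22180).

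Groups were compared with limma 3.58.1 (R 4.3.3; lmFit, eBayes), two-sided, with Benjamini-Hochberg adjustment over all genes tested and a threshold of 0.05; differences are shYTHDF3 minus shControl. The step was also run on simulated data with independently drawn genes, as a check of the code only. Array values were named for each gene past the threshold and for the 3 largest absolute differences in each role; for further lists, genes past the threshold or else the 2 largest were named. Cenpa and Spc24 were given array values, and 3 of the promoters (Kif22, Cdc20, Kif11) were printed, after their values were seen. The members, lists and tests were chosen with earlier results of these data known. Alternatives were other filters, a variance trend, renormalization, a mean of probe sets, a replicate block and leaving out each array. Figures used matplotlib 3.10.9.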

Additional observations from a re-analysis of the deposited data

How the results depend on the processing

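Further listed genes here are the 151 tested on all further lists, CDK inhibitor and DNA replication genes included. A change is counted in either direction. Genes changed were 356 over all genes tested, 1 of the mitotic genes and 2 of the further listed genes. These counts were 43, 0 and 0 with dim probe sets kept. They were 1426, 10 and 20 with an intensity trend, and 1465, 11 and 22 with the trend and robust estimation. With the replicate number as a block they were 51, 0 and 0, and Ythdf3, still at -0.71, had a limma adjusted p of 0.0758 (0.0866 without the filter). The deviations of same-numbered arrays from their group means correlated at -0.066 over 13056 genes. Same-numbered arrays thus showed no shared shift, but this value cannot tell whether they were prepared as pairs. With 1 array left out, the counts ran from 0 to 12 over all genes and were 0 for the mitotic and the further genes, and Ythdf3 ran from -0.79 to -0.63 (limma adjusted p 0.141 to 0.188); the lone array of a group was assumed to vary like the other group, and such a fit has fewer residual degrees of freedom. The median of the mitotic genes was 0.158 after quantile normalization was applied once more and ran from 0.110 to 0.162 with 1 array left out. Of the 12 alternatives, 6 move the mitotic genes' differences at all (both renormalizations and the 4 fits with an array left out). Under these, 25 of the 27 mitotic genes that the naming rule gives kept their sign. That rule takes the largest differences of each role, so a kept sign is partly built in by the choice. The exceptions among the 27, both without shControl 1, were Bub1b (-0.01, in a range of -0.01 to 0.05 with 1 array left out) and Tpx2 (0.02, in a range of -0.15 to 0.02). Genes outside the 27 also changed sign with 1 array left out. Among them were Plk1 (-0.03 to 0.05), Bub1 (-0.06 to 0.04), Ttk (-0.12 to 0.13), Kif18a (-0.26 to 0.05), Kif22 (-0.05 to 0.20) and Hmmr (-0.10 to 0.22). The number of arrays limits the precision.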
